A study of Mus musculus with 6 samples.

Results

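Transcripts of 10 genes that make, store, sense and break down serotonin were measured by RNA-seq in preparations from mouse pancreatic islets that the labels call beta cells. They are Tph1, Tph2, Ddc, Slc18a1, Slc18a2, Htr1d, Htr2b, Htr3a, Maoa and Maob, taken by gene name from a deposited table of 54532 genes. The set was chosen because Tph1 transcripts appeared in the knockout, so the values of Tph1 are given as a description with no test. The tested group held 3 Bcas2 conditional knockout (Bcas2 cKO) libraries, and the other group held 3 control libraries labelled wild type. BCAS2 belongs to the Prp19 complex of the spliceosome, and the series title ties it to the synthesis and secretion of insulin. The design text calls the treatment a knockdown. The Cre driver, the targeted exons, and the age, sex and strain of the mice are not given. Because the control group is labelled wild type, loss of Bcas2 and any effect of a Cre transgene cannot be told apart.

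The Bcas2 cKO libraries are numbered 3, 4 and 5 and the control libraries 1, 3 and 4, as in the deposited table. The labels number the samples of both groups 1, 3 and 4, so the Bcas2 cKO column numbered 5 matches no label and no column was matched to the labelled Bcas2 cKO sample 1. Values are FPKM (reads scaled to gene length and to depth), from which 16351800 to 16904326 reads on genes were recovered per Bcas2 cKO library, against 15170439 to 15594871 per control library. Bcas2 itself was 8.77 ± 0.370 FPKM in Bcas2 cKO and 12.2 ± 2.51 FPKM in control (SD, n = 3 each). Its groups did not overlap, and its log2 fold change of -0.42 had a limma adjusted p of 0.083, above the threshold of 0.05. All 10 beta cell markers looked up were present, led by Ins2 and Ins1, which together took 13.3 to 14.6% of reads in Bcas2 cKO and 18.5 to 26.7% in control. Gcg, Sst and Ppy, the hormone genes of alpha, delta and PP cells, were read in all 6 libraries too. Acinar cell transcripts, from the exocrine pancreas, took 1.68, 2.25 and 4.80% of reads in Bcas2 cKO libraries 3, 4 and 5, against 1.28, 0.588 and 0.514% in control libraries 1, 3 and 4. In such bulk samples, fewer cells of a type and less RNA per cell cannot be told apart. The labels do not say that libraries came from separate animals, so p-values measure the spread between these libraries only, which may be technical.

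Serotonin is made from tryptophan in a pair of steps. A tryptophan hydroxylase, TPH1 in most peripheral tissues and TPH2 in brain neurons, carries out the rate-limiting first step, and DOPA decarboxylase, encoded by Ddc, the next. The vesicular transporters VMAT1 (Slc18a1) and VMAT2 (Slc18a2) load it into granules, and the monoamine oxidases MAOA and MAOB break it down. In mouse islets, Tph1 is known as a gene that prolactin and placental lactogen raise steeply in pregnancy. Serotonin is then known to act on beta cells through the Gq-coupled receptor HTR2B and the Gi-coupled receptor HTR1D, and the ion channel HTR3A is known to affect insulin secretion. A resting adult islet normally holds little Tph1 message.

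Transcripts of the first enzyme were present in every Bcas2 cKO library and those of Tph1 in no control library, while the second enzyme, storage and breakdown genes were at lower or similar levels. Beside Tph1, 9 genes remain, of which 6 passed the filter, a mean FPKM of at least 1 over all libraries. Of these, Tph2 rose and Ddc and Maob fell, while Slc18a1, Htr3a and Maoa did not pass the test. Across all 13723 genes tested in the same fit, 6.97% rose and 7.55% fell, 14.5% in either direction, and the median log2 fold change was -0.03. The genes were picked with results of this contrast known, so nothing is read from a comparison of these counts. The other 3 genes, Slc18a2, Htr1d and Htr2b, lay under the filter and have no test. The 2 groups of libraries did not overlap for 4 of the 10 genes (Tph1, Tph2, Ddc and Maob), a property of 38.0% of the genes tested.

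**Figure D1:**
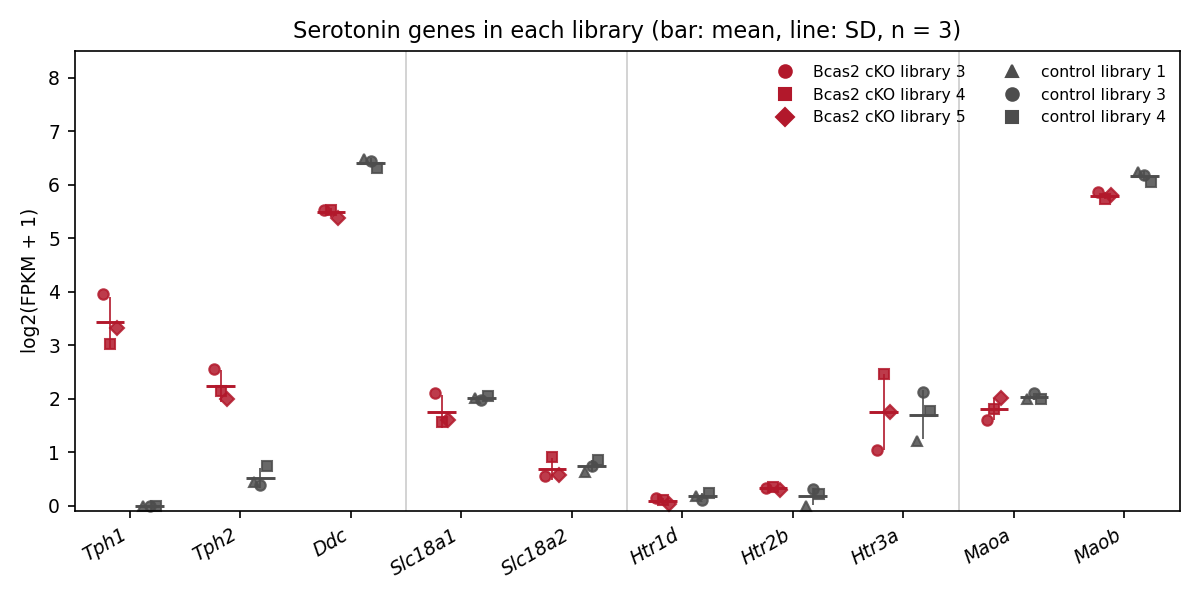
Each of the 10 serotonin genes in each library, as log2(FPKM + 1), with Bcas2 cKO libraries (red) left of control libraries (grey) and grey lines between synthesis, storage, receptor and breakdown genes. Bars are means and lines are SD (n = 3). Tph1 lies between 7.07 and 14.4 FPKM in Bcas2 cKO and at 0 in control, Tph2 is higher, Ddc and Maob are lower, and the other genes overlap between groups.

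Tph1 (ENSMUSG00000040046, chromosome 7, 46644641 to 46672537, minus strand, GRCm38) held 14.4, 7.07 and 9.03 FPKM in Bcas2 cKO libraries 3, 4 and 5, and was 0 FPKM in control libraries 1, 3 and 4. These values rest on 1614, 768 and 961 reads in Bcas2 cKO and on 0, 0 and 0 reads in control. All 3 Bcas2 cKO libraries stood above all 3 control libraries, and Bcas2 cKO library 3 held the most. The mean was 10.2 ± 3.80 FPKM in Bcas2 cKO (SD, n = 3). Against a control floor of 3 reads per library, 0.033 FPKM, that mean was at least 306-fold higher, a bound that covers counting error only. Within its own library, Tph1 exceeded 87.9% of protein-coding genes in Bcas2 cKO library 3, 74.9% in library 4 and 80.1% in library 5, on the FPKM scale, which is per length.

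No other gene of the table overlaps Tph1. The nearest protein-coding gene downstream of its end, Sergef, 4833 bases away on the same strand, held 1.74, 1.59 and 1.88 FPKM in Bcas2 cKO libraries 3, 4 and 5, against 1.54, 1.36 and 1.53 FPKM in control libraries 1, 3 and 4. Its log2 fold change of 0.14 (SE 0.11) did not pass limma's test (adjusted p = 0.41). Saal1, 13570 bases beyond the start of Tph1 and also on the minus strand, held 0.839, 0.865 and 0.904 FPKM in Bcas2 cKO and 0.835, 0.743 and 0.826 FPKM in control, under the filter. Both neighbours were read in control libraries at levels close to those in Bcas2 cKO. Every Bcas2 cKO library still stood above every control library for each, a lack of overlap seen for 38.0% of the genes tested. Saal1 was not among the genes tested, and the share under the filter was not computed. Tph1 between them was read in Bcas2 cKO alone.

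**Figure D2:**
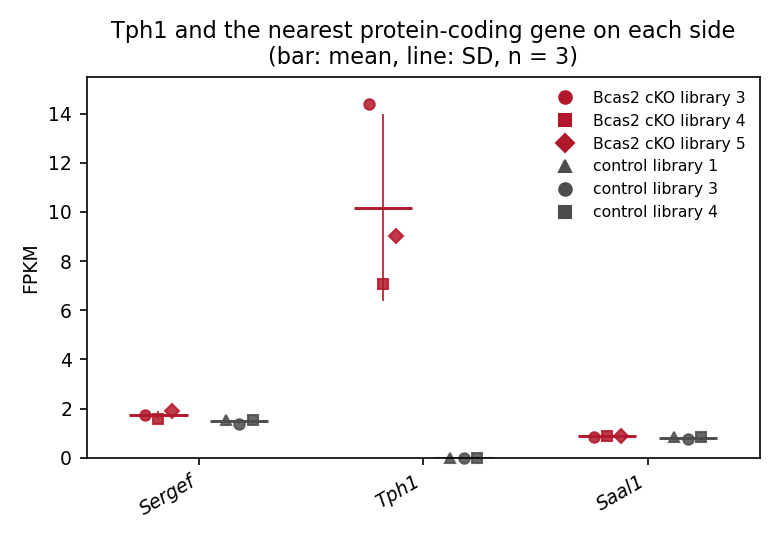
Tph1 and its nearest protein-coding gene on each side, in FPKM, in each Bcas2 cKO library (red, left) and each control library (grey, right), with means and SD (n = 3). Sergef and Saal1 lie between 0.743 and 1.88 FPKM in all 6 libraries, while Tph1 lies at 7.07 to 14.4 FPKM in Bcas2 cKO and at 0 in control.

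Tph1 has 2 annotated starts with a promoter window in RefSeq (GRCm38.p6, the build of the deposited coordinates), and Tph2 has 1. The 250 bases before each start are shown because these are the 2 hydroxylase genes whose transcripts were higher. Window 1 of Tph1 is chr7:46672538-46672787, window 2 is chr7:46667378-46667627 and the window of Tph2 is chr10:115185023-115185272, all on the minus strand and read 5′ to 3′ towards the start. Capitals mark matches on either strand to TGACG (the half-site of the cyclic AMP response element, CGTCA when reversed), TATAAA (the TATA box) and CCAAT (the CCAAT box, ATTGG when reversed).
Tph1 window 1: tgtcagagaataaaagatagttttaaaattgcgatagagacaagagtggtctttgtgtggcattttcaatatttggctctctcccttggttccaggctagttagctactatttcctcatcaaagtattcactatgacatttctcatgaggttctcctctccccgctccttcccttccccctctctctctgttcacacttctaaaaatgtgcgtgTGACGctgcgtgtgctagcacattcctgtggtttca
Tph1 window 2: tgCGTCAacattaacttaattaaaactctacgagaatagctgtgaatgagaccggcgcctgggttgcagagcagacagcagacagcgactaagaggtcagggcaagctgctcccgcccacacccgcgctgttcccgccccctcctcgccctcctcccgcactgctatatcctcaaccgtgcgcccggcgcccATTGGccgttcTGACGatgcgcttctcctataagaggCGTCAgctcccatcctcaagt
Tph2: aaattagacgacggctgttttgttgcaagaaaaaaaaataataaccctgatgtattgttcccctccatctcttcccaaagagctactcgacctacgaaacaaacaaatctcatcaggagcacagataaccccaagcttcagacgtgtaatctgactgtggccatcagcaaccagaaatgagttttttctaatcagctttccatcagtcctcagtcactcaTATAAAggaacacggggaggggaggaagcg
Window 1 of Tph1 holds TGACG at bases -36 to -32 from the start. Window 2 holds this half-site 3 times, starting at bases -248, -47 and -21, and ATTGG at bases -58 to -54. Tph2 holds TATAAA at bases -30 to -25. No marked match overlaps another. Over all 32851 windows of the same length in the RefSeq table, TGACG occurred in 17.8% on either strand and 3 or more times in 0.688%, CCAAT in 33.8% and TATAAA in 12.4%. The letters TTCNNNGAA, the site of STAT factors (in 7.02% of all windows), and TGANTCA, the AP-1 site (in 6.75%), were not in these 3 windows. Gene totals do not show which start of Tph1 was used, and a match of letters is not a site of binding.

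Tph2 (ENSMUSG00000006764, chromosome 10, 115078641 to 115185022, minus strand), the hydroxylase best known from serotonergic neurons, held 4.90, 3.43 and 2.98 FPKM in Bcas2 cKO libraries 3, 4 and 5. Control libraries 1, 3 and 4 held 0.350, 0.309 and 0.662 FPKM. These are 256, 174 and 148 reads in Bcas2 cKO and 16, 12 and 28 reads in control, and every Bcas2 cKO library stood above every control library. Tph2 rose by 1.72 on the log2(FPKM + 1) scale (SE 0.18, limma adjusted p = 0.0031), and the ratio of mean FPKM was 8.56. That scale understates low genes, and with voom on the recovered reads the log2 fold change was 3.14. Tph2 passed the filter through its Bcas2 cKO values alone. The call held in every alternative fit.

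Tph1 was the more abundant hydroxylase in Bcas2 cKO, at 2.94, 2.06 and 3.03 times the FPKM of Tph2 in libraries 3, 4 and 5. In control, Tph2 was the one of the pair with reads. Bcas2 cKO library 3 was highest for both genes. Libraries 4 and 5 were in opposite order for Tph1 and for Tph2.

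Ddc (ENSMUSG00000020182, chromosome 11, 11814101 to 11898144, minus strand), which also makes dopamine from L-DOPA, held 45.2, 45.1 and 40.7 FPKM in Bcas2 cKO libraries 3, 4 and 5. Control libraries 1, 3 and 4 held 87.9, 85.6 and 78.6 FPKM, with no overlap between groups. Ddc fell by 0.93 on the log2(FPKM + 1) scale (SE 0.09, limma adjusted p = 0.0024), to 0.520 of the control mean. With a block on the shared library numbers the adjusted p was 0.054. An antisense gene, 1700042O10Rik, overlaps Ddc and held 38, 38 and 39 reads in Bcas2 cKO, against 18, 19 and 27 reads in control; whether counting used strand is not given.

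Relative to Ddc, the hydroxylase values are given as a description, since the set was chosen for Tph1 and the sum is mostly Tph1 in Bcas2 cKO. The summed FPKM of Tph1 and Tph2 came to 42.7, 23.3 and 29.5% of that of Ddc in Bcas2 cKO libraries 3, 4 and 5, and to 0.399, 0.361 and 0.843% in control libraries 1, 3 and 4. Ddc remained the most abundant of the 3 synthesis genes in all 6 libraries. The largest control percentage, in library 4, comes with the highest Tph2 and the lowest Ddc of the control libraries.

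The storage genes overlapped between groups. Slc18a1 (ENSMUSG00000036330, chromosome 8, 69037711 to 69089235, minus strand) held 3.31, 1.94 and 2.02 FPKM in Bcas2 cKO libraries 3, 4 and 5, against 3.01, 2.91 and 3.14 FPKM in control libraries 1, 3 and 4. Libraries 4 and 5 lay below all control libraries and library 3 above them. The log2 fold change was -0.26 (SE 0.16, limma adjusted p = 0.31). It was -0.43 without Bcas2 cKO library 3 (limma adjusted p = 0.071) and -0.16 without library 4 (0.59). Atp6v1b2, on the opposite strand, overlaps the gene with 3713 to 4353 reads per Bcas2 cKO library and 3947 to 4104 per control library. Slc18a2 (ENSMUSG00000025094, chromosome 19, 59260878 to 59296012, plus strand), the transporter used by most monoamine neurons, held 0.464, 0.881 and 0.488 FPKM in Bcas2 cKO and 0.547, 0.662 and 0.806 FPKM in control. It was under the filter, and both the lowest and the highest of its 6 values were in Bcas2 cKO.

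Of the 3 receptor genes, Htr3a alone passed the filter. Htr3a (ENSMUSG00000032269, chromosome 9, 48899213 to 48911099, minus strand), a subunit of the serotonin-gated cation channel, held 1.06, 4.50 and 2.34 FPKM in Bcas2 cKO libraries 3, 4 and 5. Control libraries 1, 3 and 4 held 1.30, 3.34 and 2.42 FPKM. The groups overlapped fully, the log2 fold change was 0.05 (SE 0.38, limma adjusted p = 0.95), and its sign depended on single libraries, at -0.31 without Bcas2 cKO library 4 and -0.20 without control library 1. Markers of peripheral neurons were read beside Htr3a, and those named here were chosen after their values were seen. Prph, the intermediate filament peripherin, held 3.03, 9.58 and 7.28 FPKM in Bcas2 cKO libraries 3, 4 and 5, and 4.64, 7.12 and 4.94 FPKM in control libraries 1, 3 and 4, the library order of Htr3a within each group. Slc18a3, the vesicular acetylcholine transporter, held 0.914, 2.66 and 1.85 FPKM in Bcas2 cKO and 1.65, 1.97 and 1.10 FPKM in control, in the library order of Htr3a in Bcas2 cKO but not in control. Elavl4, a neuronal RNA-binding protein gene, held 7.68, 6.83 and 7.53 FPKM in Bcas2 cKO, lowest where Htr3a was highest, and 7.28, 10.2 and 8.68 FPKM in control. The 9 genes of the autonomic and serotonergic neuron list summed to 14.8 to 25.3 FPKM in Bcas2 cKO and 19.2 to 24.5 FPKM in control, and their part in the Htr3a values was not tested.

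Htr2b (ENSMUSG00000026228, chromosome 1, 86099026 to 86111970, minus strand), the receptor tied to beta cell growth in pregnancy, held 0.259, 0.267 and 0.218 FPKM in Bcas2 cKO libraries 3, 4 and 5, against 0, 0.243 and 0.160 FPKM in control libraries 1, 3 and 4. These are 10, 10 and 8 reads against 0, 7 and 5 reads, and Bcas2 cKO library 5 lay below control library 3. Psmd1, a proteasome subunit gene on the opposite strand, overlaps Htr2b and held 1158 to 1450 reads per Bcas2 cKO library and 1054 to 1231 per control library. Htr1d (ENSMUSG00000070687, chromosome 4, 136423524 to 136444398, plus strand) held 0.103, 0.071 and 0.018 FPKM in Bcas2 cKO and 0.138, 0.069 and 0.170 FPKM in control, on 6, 4 and 1 reads against 7, 3 and 8 reads. Neither receptor had a test in the main fit, and with no filter the limma adjusted p was 0.47 for Htr2b and 0.48 for Htr1d. Counts this low can hide a difference. The other 11 serotonin receptor genes of the table held 0 to 21 reads per library and were all under the filter, so Htr3a was the one of 14 receptor genes tested. The highest of the 11 was Htr3b, the partner subunit of Htr3a, at 0, 0.259 and 0.048 FPKM in Bcas2 cKO libraries 3, 4 and 5 and 0.026, 0.645 and 0.085 FPKM in control libraries 1, 3 and 4.

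Both monoamine oxidase genes lie side by side on the X chromosome. Maob (ENSMUSG00000040147, X, 16709282 to 16817366, minus strand) held 57.0, 51.8 and 54.6 FPKM in Bcas2 cKO libraries 3, 4 and 5, against 74.5, 71.3 and 65.2 FPKM in control libraries 1, 3 and 4. The groups did not overlap, and Maob fell by 0.36 on the log2(FPKM + 1) scale (SE 0.09, limma adjusted p = 0.037), to 0.774 of the control mean. The call was lost in 6 of 6 fits without 1 library, where the adjusted p ranged from 0.062 to 0.11. With all libraries kept, it was also lost with no filter (limma adjusted p = 0.063), with quantile normalization (0.065) and with a block on the shared numbers (0.28). Maoa (ENSMUSG00000025037, X, 16619698 to 16687818, plus strand), the form that prefers serotonin as a substrate, held 2.01, 2.50 and 3.03 FPKM in Bcas2 cKO and 2.98, 3.31 and 2.99 FPKM in control. Bcas2 cKO libraries 3 and 4 lay below all control libraries and library 5 within them, and the log2 fold change was -0.23 (SE 0.12, limma adjusted p = 0.25). It was -0.12 without Bcas2 cKO library 3 and -0.35 with the block, and passed in neither. Maob was the dominant oxidase throughout, at 28.3, 20.7 and 18.0 times the FPKM of Maoa in Bcas2 cKO libraries 3, 4 and 5, and 25.0, 21.6 and 21.8 times in control libraries 1, 3 and 4.

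By mean FPKM, the order of the 10 genes in Bcas2 cKO was Maob (54.5 ± 2.62), Ddc (43.7 ± 2.57), Tph1 (10.2 ± 3.80) and Tph2 (3.77 ± 1.0), followed by Htr3a, Maoa, Slc18a1, Slc18a2, Htr2b and Htr1d (SD, n = 3). In control it was Ddc (84.0 ± 4.86), Maob (70.3 ± 4.70), Maoa (3.09 ± 0.186), Slc18a1 (3.02 ± 0.115) and Htr3a (2.35 ± 1.02), with the other 5 under 1 FPKM. Tph2, Htr3a, Maoa and Slc18a1 overlapped in Bcas2 cKO, as did Maoa, Slc18a1 and Htr3a in control. Ddc and Maob stood apart from each other in both groups, in opposite order.

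A further 58 genes of the pathway were listed by role, of which 24 passed the filter. Among these, 2 rose, 4 fell and 18 did not pass the test, with a median log2 fold change of -0.16. The shares over all genes tested were 6.97% higher and 7.55% lower. Tetrahydrobiopterin is the cofactor that TPH1, TPH2 and the other aromatic amino acid hydroxylases need. Of 9 genes for this cofactor and for DNAJC12, a chaperone of the hydroxylases, 7 were tested, Pts fell and 6 did not pass. Pts, which makes the last intermediate before the final reduction, held 9.80, 8.47 and 8.86 FPKM in Bcas2 cKO libraries 3, 4 and 5 and 13.7, 12.4 and 11.3 FPKM in control libraries 1, 3 and 4 (log2 fold change -0.43, SE 0.09, limma adjusted p = 0.029). Its call was lost in 5 of 6 fits without 1 library. Gch1, the entry enzyme of the same route, had a log2 fold change of -0.24 (adjusted p = 0.19 with limma) and Dnajc12 one of -0.34 (0.056).

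Th, the tyrosine hydroxylase that starts catecholamine synthesis, held 8.77, 13.4 and 8.80 FPKM in Bcas2 cKO and 24.5, 16.0 and 17.0 FPKM in control. It fell by 0.83 (SE 0.21, limma adjusted p = 0.042), a call lost in 5 of 6 fits without 1 library.

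Of 5 genes for serotonin uptake into cells, Slc29a4 alone passed the filter. Slc29a4, the plasma membrane monoamine transporter, held 11.1, 10.5 and 13.1 FPKM in Bcas2 cKO and 18.4, 23.6 and 22.2 FPKM in control. It fell by 0.83 (SE 0.12, limma adjusted p = 0.0080), with no overlap between groups, and kept its call in every alternative fit. Slc6a4, the high-affinity serotonin transporter of neurons and platelets, held 3, 0 and 3 reads in Bcas2 cKO and 0, 0 and 1 in control. The 3 subunits and carriers of tryptophan uptake were all tested and none passed, the most abundant being Slc3a2 (45.8 ± 6.08 FPKM in Bcas2 cKO and 51.3 ± 3.68 FPKM in control, SD, n = 3 each, log2 fold change -0.16, limma adjusted p = 0.37).

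After monoamine oxidase, aldehyde dehydrogenases and reductases turn the product into its acid or alcohol. Of 6 such genes tested Aldh9a1 rose and 5 did not pass, against 6.97% that rose over all genes tested. Aldh9a1 held 37.2, 32.7 and 33.7 FPKM in Bcas2 cKO and 24.5, 23.7 and 22.6 FPKM in control (log2 fold change 0.53, SE 0.08, limma adjusted p = 0.0094, and 0.091 with a block on the shared numbers). Tgm2, a transglutaminase that can attach serotonin to proteins, held 2.57, 2.38 and 2.34 FPKM in Bcas2 cKO and 1.53, 1.37 and 1.28 FPKM in control. It rose by 0.52 (SE 0.10, limma adjusted p = 0.020), a call lost in 5 of 6 fits without 1 library. The 7 genes of the kynurenine branch, which competes for tryptophan, and the 4 of the melatonin branch were all under the filter. By the mean over all 6 libraries the most abundant of the first was Haao, at 0.647 ± 0.105 FPKM in Bcas2 cKO and 0.649 ± 0.407 FPKM in control (SD, n = 3 each). Another 3 genes of the branch, named after their values were seen, had no overlap between groups. That was a property of 38.0% of the genes tested, and its share among genes under the filter, as these are, was not computed. Afmid held 0.857, 0.658 and 0.885 FPKM in Bcas2 cKO against 0.570, 0.314 and 0.519 FPKM in control, Kmo averaged 0.371 FPKM in Bcas2 cKO and 0.108 FPKM in control, and Tdo2 averaged 0.268 FPKM in Bcas2 cKO and 0.622 FPKM in control. Of the melatonin genes the most abundant was Aanat, which acetylates serotonin, at 0.670 ± 0.128 FPKM in Bcas2 cKO and 0.305 ± 0.10 FPKM in control (SD, n = 3 each).

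Of 10 transcription factors known from serotonergic neurons, 5 were tested and Foxa2 fell, against 7.55% that fell over all genes tested. Foxa2, also a factor of islet development, held 31.5, 27.7 and 32.8 FPKM in Bcas2 cKO and 55.9, 64.5 and 44.1 FPKM in control (log2 fold change -0.80, SE 0.15, limma adjusted p = 0.016). It lost its call without Bcas2 cKO library 3 (0.052), without library 4 (0.059) and with the block (0.063). Fev, which drives the serotonergic gene battery in neurons, held 8.93, 8.26 and 8.21 FPKM in Bcas2 cKO libraries 3, 4 and 5 and 8.03, 6.87 and 6.02 FPKM in control libraries 1, 3 and 4. Those groups did not overlap, but the log2 fold change of 0.25 (SE 0.11) did not pass limma's test (adjusted p = 0.15). Lmx1b went the other way, also with no overlap, at 2.74, 3.45 and 2.90 FPKM in Bcas2 cKO and 4.60, 3.61 and 4.05 FPKM in control. Its log2 fold change of -0.34 (SE 0.11) did not pass either (limma adjusted p = 0.088). Fev and Lmx1b were named after their values were seen.

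**Figure D3:**
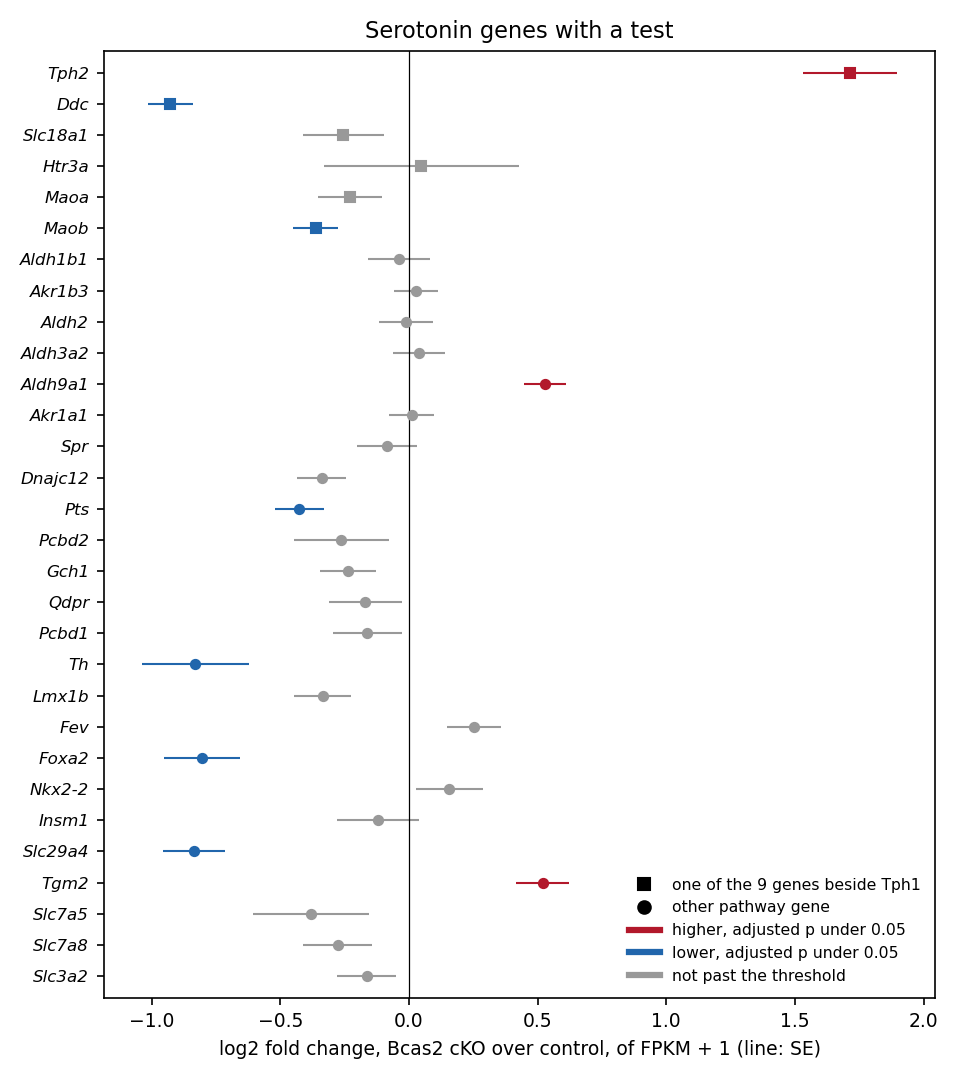
Log2 fold change of FPKM + 1, Bcas2 cKO over control, for the 6 serotonin genes beside Tph1 and the 24 other pathway genes that were tested, grouped by role, with limma SE as lines and colour for adjusted p under 0.05. Tph2 (1.72) lies farthest to the right and Ddc (-0.93) farthest to the left.

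Because lactogens are the known inducers of islet Tph1, 11 genes of that pathway and its islet targets were listed, and 10 passed the filter. Of these, 2 rose, 1 fell and 7 did not pass, with a median log2 fold change of 0.10. Over all genes tested, 6.97% rose and 7.55% fell, and nothing is read from a comparison of these counts. Prlr, the prolactin receptor, held 40.6, 47.1 and 45.3 FPKM in Bcas2 cKO and 18.2, 17.2 and 22.4 FPKM in control. It rose by 1.17 (SE 0.12, limma adjusted p = 0.0026), in every alternative fit. Tnfrsf11b encodes the decoy receptor osteoprotegerin and is known to be raised by lactogens in beta cells. It held 16.6, 7.96 and 11.2 FPKM in Bcas2 cKO libraries 3, 4 and 5. Control libraries 1, 3 and 4 held 2.68, 3.0 and 2.05 FPKM of it, and it rose by 1.81 (SE 0.24, limma adjusted p = 0.0062), also in every alternative fit. The Bcas2 cKO libraries stood in the same order for Tnfrsf11b as for Tph1, and in the reverse order for Prlr. A part of lactogen signalling in the Tph1 values was not tested.

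Ghr, the growth hormone receptor, held 17.0, 17.0 and 18.8 FPKM in Bcas2 cKO and 20.7, 25.7 and 25.5 FPKM in control. It fell by 0.42 (SE 0.10, limma adjusted p = 0.041), a call lost in 5 of 6 fits without 1 library. Cish and Socs2, feedback inhibitors and direct targets of STAT5, did not pass. Cish held 17.8, 15.4 and 12.4 FPKM in Bcas2 cKO libraries 3, 4 and 5 and 3.89, 2.99 and 11.7 FPKM in control libraries 1, 3 and 4 (log2 fold change 1.35, SE 0.41, limma adjusted p = 0.071). Its groups did not overlap, but control library 4 lay close to Bcas2 cKO library 5. The log2 fold change was 0.49 for Socs2 (limma adjusted p = 0.059), 0.10 for Stat5a, -0.02 for Stat5b and -0.03 for Jak2.

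**Figure D4:**
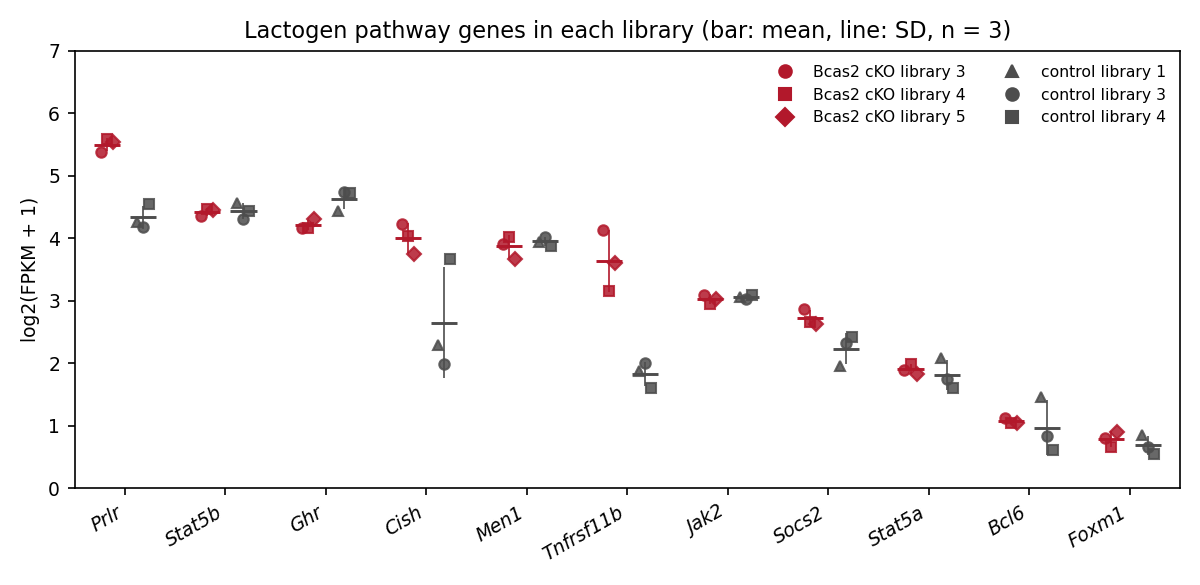
The 11 lactogen pathway genes in each library as log2(FPKM + 1), ordered by level, with Bcas2 cKO libraries (red) left of control libraries (grey), means as bars and SD as lines (n = 3). Prlr and Tnfrsf11b are higher in every Bcas2 cKO library, and the Cish value of control library 4 (11.7 FPKM) lies just under that of Bcas2 cKO library 5 (12.4 FPKM).

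Serotonin genes are also expressed by cells other than beta cells, and markers of these were read in the same libraries. Of 10 mast cell markers 0 passed the filter, 9 had at most 3 reads in every library, and Fcer1a and Mrgprb2 were at 0 in all 6. The list summed to 0.454 to 0.787 FPKM in Bcas2 cKO and 0.320 to 0.579 FPKM in control. Hdc, the histidine decarboxylase, gave 0.454 to 0.595 FPKM of this in Bcas2 cKO and 0.278 to 0.523 FPKM in control. None of the 7 platelet and megakaryocyte markers passed the filter, and Gp1bb was at 0 in all libraries. Their sum was 2.38 to 2.48 FPKM in Bcas2 cKO and 1.47 to 1.65 FPKM in control. Itga2b held 0.859, 1.0 and 0.914 FPKM in Bcas2 cKO libraries 3, 4 and 5, against 0.659, 0.516 and 0.524 FPKM in control libraries 1, 3 and 4. Gp1ba and Gp9 were also higher in every Bcas2 cKO library. Such a lack of overlap was seen for 38.0% of the genes tested, which did not include these markers. Pf4, Ppbp and Treml1, at 0 to 9 reads per library, overlapped between groups. Of the 9 enterochromaffin markers, Reg4 was at 0 in all libraries and Lmx1a held 0 to 2 reads. In this list 4 passed the filter and Chgb rose (log2 fold change 0.54, limma adjusted p = 0.045). The other 3 did not pass the test, and the median log2 fold change of the 4 was -0.16. That list summed to 4027 to 4741 FPKM in Bcas2 cKO and 4805 to 6938 FPKM in control, nearly all from the granin genes Chga and Chgb, which beta cells express as well.

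The acinar list of 18 genes, 16 of them tested, had 6 that rose and 10 that did not pass, with a median log2 fold change of 1.64, and summed to 11568 to 35830 FPKM in Bcas2 cKO and 3895 to 9492 FPKM in control. Tph1 held 14.4, 7.07 and 9.03 FPKM in Bcas2 cKO libraries 3, 4 and 5, where acinar genes took 1.68, 2.25 and 4.80% of reads, and 0 FPKM in control libraries 1, 3 and 4, where they took 1.28, 0.588 and 0.514%. Of 10 macrophage markers 8 were tested and 5 rose (median log2 fold change 0.55), summing to 111 to 139 FPKM in Bcas2 cKO and 89.3 to 108 FPKM in control. Of 10 alpha, delta and PP cell markers 2 rose (median 0.27), summing to 37259 to 40267 FPKM in Bcas2 cKO and 32577 to 38361 FPKM in control. Of 10 beta cell markers 3 fell, Slc2a2, Slc30a8 and Ucn3, and 7 did not pass (median -0.65), with sums of 108887 to 128742 FPKM in Bcas2 cKO and 166105 to 265527 FPKM in control. Over all genes tested in the same fit, 6.97% rose and 7.55% fell. The part of these marker lists in the serotonin gene values was not tested.

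**Figure D5:**
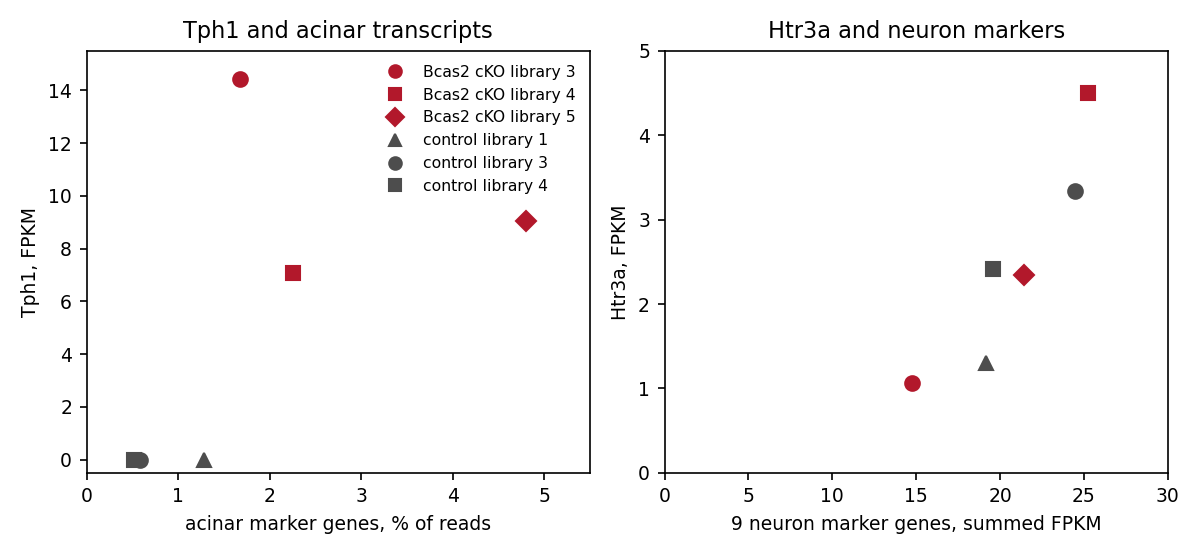
Left, FPKM of Tph1 against the percent of reads on 18 acinar marker genes, and right, FPKM of Htr3a against the summed FPKM of the 9 neuron list genes, 1 point for each Bcas2 cKO (red) and control (grey) library. Acinar shares are 1.68 to 4.80% in Bcas2 cKO and 0.514 to 1.28% in control, and neuron list sums are 14.8 to 25.3 FPKM in Bcas2 cKO and 19.2 to 24.5 FPKM in control.

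The genes whose profile over the 6 libraries lay nearest to that of Tph1, by Euclidean distance on log2(FPKM + 1), were Cldn8 (distance 1.0), a tight junction claudin, Sftpd (1.11), a collectin, Gdf3 (1.21), a TGF-beta family ligand, and Gbp11 (1.49) and Gbp8 (1.51), guanylate-binding protein genes. Cldn8 held 20.5, 12.1 and 12.0 FPKM in Bcas2 cKO libraries 3, 4 and 5 and 0.187, 0.063 and 0.202 FPKM in control libraries 1, 3 and 4. Sftpd held 13.6, 7.85 and 6.48 FPKM in Bcas2 cKO and 0.417, 0.307 and 0.732 FPKM in control. All 5 were highest in Bcas2 cKO library 3, as Tph1 was, a likeness that the choice by distance to Tph1 favours. Guanylate-binding protein genes have close copies, so the division of reads among them is uncertain.

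A search for patterns near to all or none was made with the values of Tph1 known, so its own place there is no result. Of 54532 genes of the table, 21687 were at 0 in every library. At most 3 reads over all control libraries and at least 100 in each Bcas2 cKO library were found for 3 genes of the table, Tph1, Gbp11 and Prok1, and the converse for 0. Short or low genes seldom reach 100 reads, so these counts do not show how rare such a pattern is. Prok1, the secreted ligand prokineticin 1, held 4.34, 2.16 and 2.83 FPKM in Bcas2 cKO libraries 3, 4 and 5, again with library 3 highest and library 4 lowest, and 0.019, 0.046 and 0 FPKM in control libraries 1, 3 and 4. Tph1 was the most abundant of the 3 in each Bcas2 cKO library, and the 1 with no read in any control library.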

How the data were processed

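RNA of 3 Bcas2 cKO and 3 control islet samples was extracted with Trizol and turned into libraries by a SMARTer mRNA-seq kit, per the labels' protocols. The authors deposited FPKM per gene and library with gene lengths and coordinates, per the file headers, on GRCm38 (mm10), per the submitters' processing notes. The aligner, the counter and the use of strand were not given in the sources used here. Columns were matched to samples by name, and the Bcas2 cKO column numbered 5, which matches no label, was used as a member of its group.

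FPKM times gene length gave whole reads, within 0.01 of a read, for 100% of values above 0. The depth behind the deposited FPKM was 0.890 to 1.11 times the recovered totals, so a scaling by the authors is also in the values. No library was a copy of another (chi-square per degree of freedom at least 13.6 in every pair). Limma 3.58.1 (eBayes with trend) in R 4.3.3 was run on log2(FPKM + 1) of genes averaging at least 1 FPKM, and p-values were Benjamini-Hochberg adjusted over all 13723 genes. A gene rose or fell when its adjusted p was under 0.05. The fit was tested on simulated data. Promoter windows came from RefSeq and matched 7 of the 10 genes. Python 3.11.15, numpy 2.4.6, pandas 2.3.3 and matplotlib 3.10.9 made the tables and figures.

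The members, gene lists, rule and tests were chosen with earlier results of these data known. The rule named all 10 members, called genes of the other lists or the most abundant gene of a list, the neighbours of Tph1 and the genes with the nearest profile. A gene of the pathway is not reported here and is left out of the list counts. For the cell type marker lists, counts and summed levels stand in place of most names. Gch1, Dnajc12, Fev, Lmx1b, Slc6a4, Cish, Socs2, Stat5a, Stat5b, Jak2, Prph, Slc18a3, Elavl4, Afmid, Kmo, Tdo2, Hdc, the platelet markers named and the markers at or near 0 were added after their values were seen. Other settings were a pseudocount of 0.1, no filter, a minimum mean of 0.3 FPKM, quantile normalization, median-of-ratios scaling, scaling on non-hormone genes, eBayes without trend, voom on recovered reads, a block on the shared numbers and leaving out each library.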

Additional observations from a re-analysis of the deposited data

How the results depend on the processing

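Tph2, Slc29a4, Prlr and Tnfrsf11b kept their calls and directions under all 15 other settings, and Ddc and Aldh9a1 under all but the block. With all libraries kept, Maob, Pts, Th, Tgm2 and Ghr lost their calls with no filter and with the block. Maob also lost its call with quantile normalization, Th with a minimum mean of 0.3 FPKM, and Th and Ghr with eBayes without trend. The number of genes called over the table, 1993, was 1144 with no filter, 538 with a replicate block on the shared numbers 3 and 4, and 878 to 1950 without 1 library. For the 9 genes beside Tph1, 3 were called, against 1 (Tph2) with the block and 2 without any 1 library. For the other pathway genes, 6 were called, against 1 (Slc29a4) with the block and 2 to 4 without 1 library. Htr3a, with no call, turned to -0.20 with the block and ranged from -0.31 to 0.40 without 1 library, with -0.31 without Bcas2 cKO library 4 and -0.20 without control library 1. For Tph1 the log2 difference was 3.43, but 6.62 with a pseudocount of 0.1 and 10.81 with voom, since control was at 0; these are no bounds. Deviations of same-numbered libraries from their group means correlated at -0.149 (3 and 3) and 0.0453 (4 and 4). Those of differently numbered libraries correlated at -0.129 to 0.118. Too few libraries share a number for this to show whether the numbers pair the samples. No column was matched to Bcas2 cKO sample 1, and no crossed pairing was run. Leaving out a library lowers the number of libraries, and no filter raises the number of genes adjusted for. In the block fit, control library 1 and Bcas2 cKO library 5 share a number with no other library. Both the fold change and its spread then rest on the libraries numbered 3 and 4 of each group. The cause of the other changes was not tested. No setting moved the median of all genes by over 0.1 on the log2 scale. Receptor genes at 0 to 10 reads per library are limited by depth.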
